A study of Homo sapiens with 2 samples.

Results

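DKK1, DKK3, WIF1 and AXIN2 are 4 human genes grouped as antagonists of WNT signalling. They were chosen by name, as genes reported elsewhere to be repressed by PRMT5, with the peak list already in view, and their peaks were then selected by position: every PRMT5 peak within 10 kb of the gene on the human genome build hg19 was taken. Of 2840 peaks in the list, 1 met that rule. It lay at DKK1, and the other 3 genes had none. Because position chose the peak, its presence is given here as a description and no test was made of it.

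The study profiled PRMT5 on chromatin of untreated MDA-MB-231 cells, a widely used line derived from a human breast cancer. One library came from formaldehyde-crosslinked, sonicated chromatin precipitated with a PRMT5 antibody, and the other was input DNA from the same line with no antibody. Only the PRMT5 peak list was used here, without the input. There is 1 library of each kind, hence no replicate for any value given, and how many reads stand behind the list is unknown.

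PRMT5 is an arginine methyltransferase that works in a complex with WDR77 and places symmetric dimethyl marks on histone tails and on splicing proteins. It does not read a DNA sequence itself, and other proteins bring it to chromatin. In the WNT pathway, secreted ligands bind Frizzled and LRP5/6 receptors at the cell surface, and the signal keeps β-catenin from being destroyed, so that it can enter the nucleus and act with TCF/LEF factors at target genes. The 4 genes act at different points. DKK1 is secreted and binds LRP5/6, WIF1 is secreted and binds the WNT ligands themselves, DKK3 is a divergent secreted member of the Dickkopf family, and AXIN2 is a scaffold of the complex that destroys β-catenin and is itself a standard target of the pathway.

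Promoter sequences are shown first, because repression of a gene is usually looked for there and no PRMT5 peak lay at the start of any of the 4 genes. RefSeq (build GRCh38.p14) gave a promoter for DKK1 and WIF1, running from 250 bases before to 50 bases after the gene start. For WIF1, RefSeq's gene length differed by 263 bp from the hg19 span, so the start used here may not be the hg19 start used below. The WIF1 sequence may then lie partly or wholly inside that span. Capitals mark the core of a TCF/LEF site, CTTTGA or its reverse complement TCAAAG, and each sequence reads 5′ to 3′ along the gene. The DKK1 promoter is chr10:52314031-52314330 on the plus strand, and the WIF1 promoter is chr12:65121256-65121555 on the minus strand.
DKK1: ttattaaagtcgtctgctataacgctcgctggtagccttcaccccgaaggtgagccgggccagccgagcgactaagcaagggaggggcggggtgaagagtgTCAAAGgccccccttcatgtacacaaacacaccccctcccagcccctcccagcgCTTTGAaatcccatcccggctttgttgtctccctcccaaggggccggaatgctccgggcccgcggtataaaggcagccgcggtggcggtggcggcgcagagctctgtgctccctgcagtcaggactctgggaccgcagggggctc
WIF1: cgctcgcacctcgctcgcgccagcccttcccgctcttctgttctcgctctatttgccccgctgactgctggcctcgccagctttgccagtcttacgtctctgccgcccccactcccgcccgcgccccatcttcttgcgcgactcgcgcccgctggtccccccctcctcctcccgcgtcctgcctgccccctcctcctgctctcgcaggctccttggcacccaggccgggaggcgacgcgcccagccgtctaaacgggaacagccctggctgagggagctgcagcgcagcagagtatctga

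The DKK1 promoter held the TCF/LEF core 2 times, first as TCAAAG with its first letter 149 bases before the gene start and then as CTTTGA at 95 bases before it. WIF1 held it 0 times. Of the 35116 promoters of the same length in the table, 12.9% held this core on either strand at least once and 1.29% held it 2 or more times. Both promoters lay above the median of 58.7% G and C over all promoters, at 63.7% for DKK1 and 69.7% for WIF1. A lower share was found in 63.1% of all promoters for DKK1 and in 78.9% for WIF1. The 2 promoters held 20 and 29 CpG pairs, against a median of 14. Fewer pairs were found in 58.8% of all promoters for DKK1 and in 75.8% for WIF1. DKK1 was thus near the middle of all promoters in both measures. The GC box GGGCGG, searched on both strands, occurred 1 time in DKK1 and 2 times in WIF1, and 45.0% of all promoters held it. Neither promoter held the E-box CANNTG, found in 68.7% of all promoters, or CCAAT on either strand, found in 34.6%. None of the matches in either promoter overlapped another. They describe letters only and do not show that a factor binds.

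At DKK1, the PRMT5 peak lay just past the end of the gene and not at its start. On hg19 the gene spans chr10:54074041-54077417 on the plus strand, in band 10q21.1, and is 3377 bp long. The peak spans chr10:54077501-54079187. It began 84 bp beyond the gene end and ended 1770 bp beyond it, so it lay wholly downstream of the annotated gene. Counted from the gene start, it ran from 3460 to 5146 bp. No peak overlapped the gene, and none lay upstream of it within 1 Mb. In gene order on RefSeq, the next gene downstream of DKK1 is the pseudogene RPL31P44 and the next coding gene is MBL2. Upstream lie the long noncoding RNA PRKG1-AS1 and the coding gene PRKG1.

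**Figure D1:**
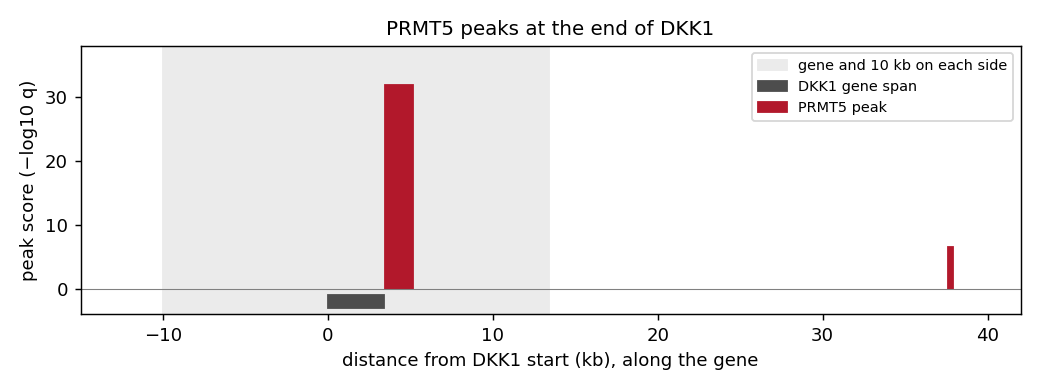
PRMT5 peaks around DKK1, drawn to scale as boxes over their width (horizontal axis, kb from the gene start along the gene) with height equal to the peak score (vertical axis, −log10 q); the dark bar is the gene and the shaded band the gene plus 10 kb on each side. The tall box of score 31.9 begins where the gene ends, and a narrow peak of score 6.50 lies outside the band.

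The DKK1 peak was broad for this list. Its width was 1687 bp, 8.03 times the median of 210 bp, and it ranked 13 among the 2839 peaks outside the mitochondrial sequence, 99.5% of which were narrower. On chromosome 10 it was the widest of 195 peaks, of which 6 were wider than 1 kb. Its neighbours in width were peaks of 1732, 1716 and 1713 bp above it and of 1682, 1670 and 1629 bp below it, with scores from 32.70 to 201.19. The DKK1 peak thus had a lower score than each of these 6 peaks of nearly equal width. The 6 were not all separate loci. Those of 1682 and 1629 bp lay close together, at chr2:92319682-92321363 and chr2:92306671-92308299. Whether the others of the 6 lay close to further peaks in the list was not examined. Peaks that lie close together were not set apart in any rank of width or score given here. Whether such peaks lie in repeated sequence was not tested.

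In score, the DKK1 peak was high but not extreme. The score is the authors' value per peak, read here as −log10 q from the peak caller, and it was 31.9 at DKK1, against a median of 7.80 and a highest value of 201 in the list. It ranked 108 of 2840, with 96.2% of peaks scoring lower, and 18 of the 195 peaks of chromosome 10. Among the 54 peaks wider than 1 kb outside the mitochondrial sequence it ranked 32 by score, and their median was 34.1. The 3 peaks just above it in score were 635, 566 and 345 bp wide, and the 3 just below it were 370, 288 and 242 bp wide. The 345 bp peak, chr2:92291336-92291680, lay near the chromosome 2 peaks named above for width. For the other neighbours in score, closeness to further peaks was likewise not examined. Even the widest of the 6 neighbours in score was exceeded 2.66 times by the DKK1 peak. Among the 50 peaks above and the 50 below it in score, which ran from 39.3 down to 26.8, the median width was 382 bp, 18 were wider than 1 kb and 5 were at least as wide as the DKK1 peak. Most peaks of similar score were thus far narrower than the one at DKK1. Width and score come from the same reads and the same caller, so they are not independent readings.

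**Figure D2:**
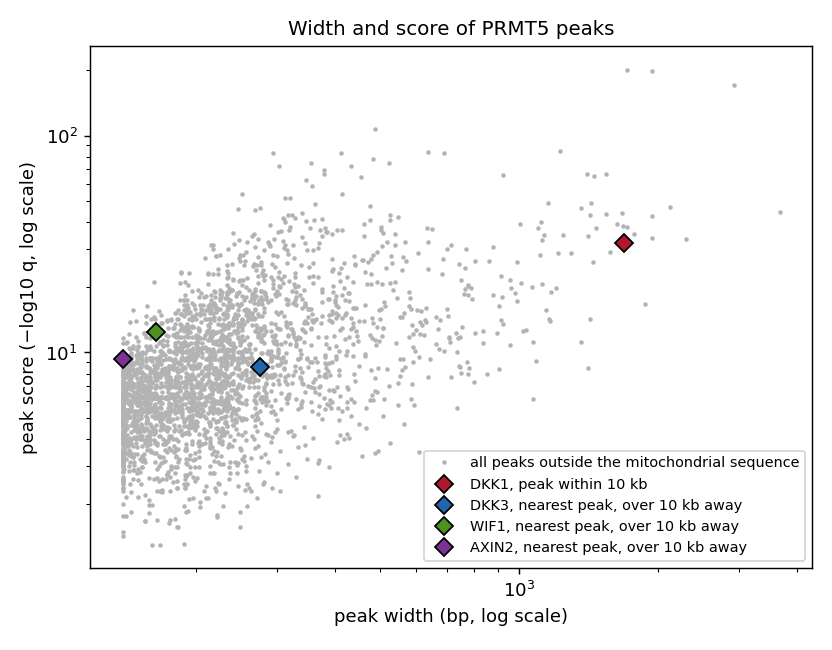
Width (horizontal axis, bp, log scale) and score (vertical axis, −log10 q, log scale) of each of the 2839 PRMT5 peaks outside the mitochondrial sequence, with the peak nearest to each gene as a coloured diamond. The DKK1 peak sits among the broadest, at 1687 bp and a score of 31.9, whereas the nearest peaks of the other 3 genes, all more than 10 kb away, are 139 to 275 bp wide and score 8.59 to 12.4.

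Beyond the 10 kb limit, 2 weaker peaks lay downstream of DKK1. The nearer began 34255 bp past the gene end, was 272 bp wide and scored 6.50, below the list's median. The other began 221882 bp past the gene end, was 159 bp wide and scored 6.95. On the upstream side the nearest peak was 3.30 Mb away, with a score of 7.33. Within 1 Mb of DKK1 the broad peak at the gene end was therefore the single strong one of 3 peaks.

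DKK3 had no PRMT5 peak within 10 kb. The gene spans chr11:11984543-12030917 on the minus strand, in band 11p15.3, and no peak overlapped its 46375 bp. Its nearest peak lay upstream, at chr11:12065603-12065877, and the edge nearest to the gene was 34686 bp before the gene start. That peak was 275 bp wide and scored 8.59, close to the middle of the list, with 56.1% of the list at the same or a lower score. Together with the narrow DKK1 peak at 34255 bp it was the closest peak outside the limit, and the DKK1 peak at 84 bp was the only one inside. Farther upstream of DKK3, 4 peaks lay between 157786 and 215301 bp from the gene start, and they scored 21.1, 6.98, 5.20 and 13.3 in order of distance. The strongest, of 189 bp, ranked 243 in the list. On the downstream side the nearest peak was 546 kb past the gene end, with a score of 5.20. In gene order the next coding gene upstream of DKK3 is MICAL2 and the next downstream is USP47. None of these distant peaks can be assigned to DKK3 from position.

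WIF1 lay farthest from any PRMT5 peak. The gene spans chr12:65444404-65515346 on the minus strand, in band 12q14.3, and its nearest peak, chr12:65824871-65825034, lay 309525 bp upstream of the gene start. It was 164 bp wide and scored 12.4. All 6 peaks within 1 Mb were upstream of the gene, and on the downstream side the nearest was 1.13 Mb away, with a score of 6.79. Of the 6, the strongest was chr12:66050678-66051154, at 535332 bp from the gene start. It was 477 bp wide, scored 40.8 and ranked 53 in the list, above the DKK1 peak. The other 4 scored 15.4 at 440 kb, 8.81 at 482 kb, 4.06 at 549 kb and 2.82 at 878 kb. The next coding gene upstream of WIF1 is LEMD3. Whether it or other genes lie between these peaks and WIF1 was not determined on hg19. None of the 6 can be assigned to WIF1 from position.

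AXIN2 also had no PRMT5 peak within 10 kb, nor within 100 kb. It spans chr17:63524683-63557740 on the minus strand, in band 17q24.1. The nearest peak, chr17:63746884-63747022, lay 189144 bp upstream of the gene start, was 139 bp wide, as narrow as any listed, and scored 9.35. The other upstream peaks, at 224 and 712 kb, scored 11.6 and 7.17. Downstream of the gene end the peaks lay at 569, 821 and 848 kb and scored 5.48, 16.8 and 17.7. The next coding gene is CEP112 upstream and RGS9 downstream. Here too, none of the peaks can be assigned to AXIN2 from position. No peak within 1 Mb of AXIN2 scored above 17.7, the lowest maximum of the 4 genes.

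**Figure D3:**
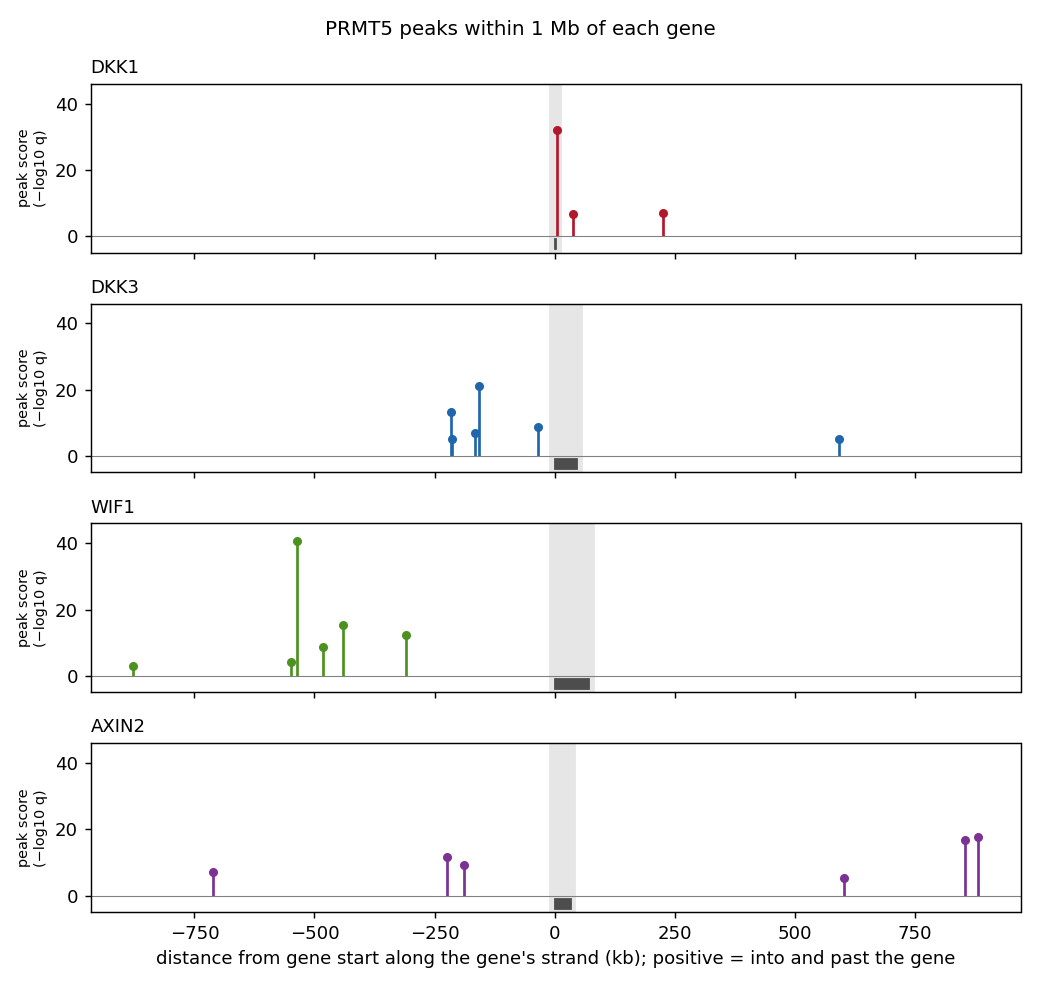
PRMT5 peaks within 1 Mb of each gene: horizontal axis, distance of the peak centre from the gene start in kb, read along the gene's strand so that positive values run into and past the gene; vertical axis, peak score (−log10 q); dark bars are the genes and shaded bands the genes plus 10 kb on each side. Only the DKK1 band holds a peak, with a score of 31.9, and all 6 peaks of the WIF1 panel lie upstream of the gene.

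The 4 genes are long or short targets for a peak, so the background was taken for each length. The genome was divided into consecutive windows as long as each gene plus 10 kb on both sides. For DKK1, whose window is 23377 bp, 1.55% of 132413 such windows held a peak anywhere in the genome and 1.93% did on chromosome 10. A peak wider than 1 kb was held by 50 of them, 0.0378%. The cut at 1 kb was not part of the planned background and was set with earlier results of these data known. That share is a description only and no measure of how rare the DKK1 peak is. For the 3 genes without a peak, 3.92% of windows of DKK3's length, 5.13% of WIF1's and 3.23% of AXIN2's held one. For genes of those lengths the lack of a peak was thus the usual state of windows, and the 0 peaks found are close to that background. These windows cover unassembled and gene-poor sequence as well as genes, and the share among genes alone was not computed.

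With wider limits the members gained peaks slowly. The count of genes with a peak was 1 at every distance from 1 to 25 kb, and 2 at 50 and 100 kb, where DKK3 joined DKK1. At 50 kb, 7.72% of windows of DKK3's length held a peak, and at 100 kb 12.0% did. WIF1 and AXIN2 had none at 100 kb, a distance at which 13.2% and 11.6% of windows of their lengths held one. Within 1 Mb, DKK1 had 3 peaks and the other 3 genes had 6 each, whereas the median window of such length held 1. As many peaks or more were held by 22.0% of windows for DKK1, 6.86% for DKK3, 7.29% for WIF1 and 6.55% for AXIN2. These longer windows also cover unassembled and gene-poor sequence, and the share among windows around genes was not computed. At the scale of 1 Mb the gene with the adjacent peak thus had the fewest peaks around it.

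**Figure D4:**
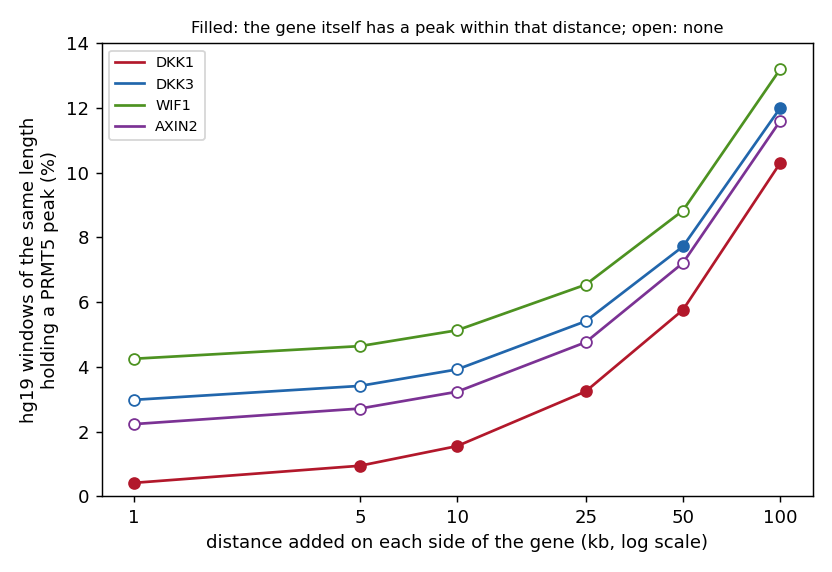
Share of consecutive hg19 windows that hold at least 1 PRMT5 peak (vertical axis, %), for windows as long as each gene plus the distance on the horizontal axis on both sides (kb, log scale); filled points mark distances at which the gene itself has a peak and open points those at which it has none. DKK1 is filled from 1 kb, where 0.414% of windows hold a peak, DKK3 from 50 kb, and WIF1 and AXIN2 stay open up to 100 kb.

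The lack of a peak does not show that PRMT5 is missing from a gene, since the list holds only regions that passed the caller's threshold in 1 library. Likewise, whether the DKK1 peak also stood out in the input, and whether it lies in repeated or highly transcribed sequence, was not tested. RNA levels of the 4 genes were not analysed here, so the peak cannot be set beside repression or activity of DKK1.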

How the data were processed

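The deposited list gives, per peak, a position, a name and a score, which was read as the peak caller's −log10 q-value. The file has no header, and this unit was inferred from the values, whose minimum, 1.30279, lies just above the −log10 of 0.05 (1.30103). CASAVA 1.4, Bowtie2, MACS2 and hg19 are named, without settings, per the submitters' processing notes. Use of the input as control and treatment of duplicate reads, which can decide whether a region passes, are not given in the sources used here.

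Gene spans on hg19 came with the rule for the 4 genes. Their lengths differed from RefSeq's GRCh38.p14 lengths by 0 bp for DKK1 and at most 335 bp. Starts were converted to count from 1. A distance is the difference between the nearest end coordinates, and 1 shared base counted as overlap. Windows for the background ran over chromosomes 1 to 22, X and Y, with lengths from GenomeInfoDb 1.38.1, and bands came from circlize 0.4.16. No coordinate was converted between builds: GRCh38.p14 served for gene order, lengths and promoter sequences, and 2 of the 4 genes were in the promoter table. Named were the 4 genes, each peak within 10 kb, the nearest peak on each side and the 3 peaks on either side of a member's peak in score; any other peak in the text was picked with its value known. The fixed lists of further WNT pathway genes were not used here, since positions on hg19 were not at hand. No test was run, as each group has 1 library. The distance functions were tested on simulated data. The genes and rules were chosen with earlier results of these data known. Python 3.11.15, numpy 2.4.6, pandas 2.3.3 and matplotlib 3.10.9 were used.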

Additional observations from a re-analysis of the deposited data

How the results depend on the processing

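Of 66 alternative values, 53 were the same as reported and 13 moved. Many of the 53 could not have moved. Shorter limits, shorter lists and stricter inclusion cannot add a peak to a gene that has none. The tally is therefore no measure of how robust the results are. The DKK1 peak stayed within the limit in the highest-scoring 50% and 25% of peaks, with the peak midpoint or the whole peak required inside the window, and after merging of peaks within 1 kb. That outcome was fixed by its rank of 108 of 2840 in score and its position next to the gene end. With limits of 50 kb and 100 kb, DKK1 had 2 peaks, DKK3 had 1, and 2 genes had a peak. WIF1 and AXIN2 had 0 under every alternative run. Measured to the peak midpoint, the nearest distances were 927 bp for DKK1, 34823 bp for DKK3, 309606.5 bp for WIF1 and 189213 bp for AXIN2. From the gene start, DKK1's was 3460 bp. Among the highest-scoring 25% of peaks, the nearest lay at 157786 bp from DKK3 and 821112 bp from AXIN2. These moves follow from the wider limit, the other reference point or the shorter list. What depth limits could not be stated, as the list holds no read counts. No paired analysis was possible because there is a single library per group.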
